A study of Mus musculus with 12 samples.

Results

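The Myc and Mxd family comprises the 9 genes Myc, Mycn, Mycl, Max, Mnt, Mxd1, Mxd3, Mxd4 and Mxi1, taken by symbol from a table of 35976 genes, and all 9 were among the 15341 genes tested, whose normalised counts averaged 10 or more. RNA was sequenced from KO+Rescue, PROSER1 KO and WT mouse embryonic stem cells (mESC), at day 2 of differentiation in N2B27 and in the undifferentiated state, with 2 libraries in each of 6 groups and 12 libraries in all. The comparisons ask how loss of PROSER1, a partner of the TET enzymes that oxidise methylated cytosine, alters expression as cells leave pluripotency, and what its return changes. N2B27 is a serum-free medium in which mESC move towards neuroectoderm. The stem cell medium holds serum, serum replacement, LIF and the inhibitors of MEK (PD0325901) and GSK3 (CHIR99021). It also has another basal medium and lacks the supplements of N2B27, so every stage comparison also spans all these differences. All lines descend from mESC of TET2 fl/fl blastocysts in which Tet2 had not been deleted, grown without feeder cells. The KO line is a single sorted clone edited with a guide against exon 1 of Proser1, and KO+Rescue was made from it by integrating a coding sequence for FLAG-tagged PROSER1 and taking a clone again, so clones and genotypes cannot be told apart. The libraries are labelled biological replicates, but the labels do not say how the cultures were separated, so the spread behind each p-value is that of these samples and may be technical. Libraries are named A and B after the letters of the table's columns.

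MYC, MYCN and MYCL are basic helix-loop-helix leucine zipper proteins that bind DNA as dimers with MAX, preferentially at the E-box CACGTG, and activate genes of ribosome assembly, metabolism and growth. MNT, MXD1, MXD3, MXD4 and MXI1 compete for the same partner and the same sites, and recruit SIN3 corepressors with histone deacetylases. In mESC, LIF with STAT3 and inhibition of GSK3 maintain Myc activity, Mycn and Myc are partly redundant, and their joint loss slows growth and metabolism.

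Promoter windows of the RefSeq table (build GRCm38.p6, from 250 bases before to 50 bases after each start site) were found for 8 of the 9 members, with 10 windows because Mxi1 has 3. Myc had no window, so its promoter was not searched. The search for CACGTG, which reads the same on both strands, found it in the windows of Max, Mnt and Mxd4. By windows that is 30.0% of the members' 10, against 7.15% of all 32851, and by genes 37.5% of the 8 members, against 11.6% of the 11400 tested genes that have one. These 3 stretches are shown because they carry, in capitals, the letters to which the family's own dimers bind, and that of Mycn because it is the member with the highest count at day 2. The capitals in Mycn mark TTTGGCGC, one form of the motif of E2F factors, chosen after the sequence was seen. Each stretch is written 5′ to 3′ on the strand of the gene and ends at the start site, except that of Max, which runs on to the end of the match.
Max, chr12:76962246-76962498, minus strand: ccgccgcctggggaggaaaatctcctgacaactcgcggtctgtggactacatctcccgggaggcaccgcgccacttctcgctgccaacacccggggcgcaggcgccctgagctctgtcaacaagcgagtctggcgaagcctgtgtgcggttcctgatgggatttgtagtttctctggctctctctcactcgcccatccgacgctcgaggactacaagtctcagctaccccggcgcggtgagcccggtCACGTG
Mnt, chr11:74830674-74830923, plus strand: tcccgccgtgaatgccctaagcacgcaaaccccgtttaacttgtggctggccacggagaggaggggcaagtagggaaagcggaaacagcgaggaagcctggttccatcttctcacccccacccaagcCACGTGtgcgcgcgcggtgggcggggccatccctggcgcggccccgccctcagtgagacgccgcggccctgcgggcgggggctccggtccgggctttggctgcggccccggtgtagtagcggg
Mxd4, chr5:34187711-34187960, minus strand: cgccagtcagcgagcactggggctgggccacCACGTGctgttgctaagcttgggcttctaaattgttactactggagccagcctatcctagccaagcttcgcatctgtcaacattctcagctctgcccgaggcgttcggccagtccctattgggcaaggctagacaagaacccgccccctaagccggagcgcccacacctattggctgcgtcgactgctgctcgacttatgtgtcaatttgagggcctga
Mycn, chr12:12941837-12942086, minus strand: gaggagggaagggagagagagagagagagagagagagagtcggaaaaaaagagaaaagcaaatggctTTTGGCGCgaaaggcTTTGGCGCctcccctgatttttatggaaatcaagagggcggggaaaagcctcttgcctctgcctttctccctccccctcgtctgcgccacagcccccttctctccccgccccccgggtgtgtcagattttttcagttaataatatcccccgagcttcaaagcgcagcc

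The match began 3 bases before the start site in Max, 123 before it in Mnt and 219 before it in Mxd4. The start sites are those of the promoter windows, and in Max and Mnt they lie inside the gene positions given below. In Mycn the 2 matches began 183 and 168 bases before the start site, and TTTGGCGC on either strand was found in 1 of the 8 members and in 0.514% of all windows. A match is a description of the letters and not a binding site, and binding was not measured in these libraries.

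The libraries held 38634668 to 66450803 assigned read pairs, a ratio of 1.72, and between 6 and 8574 of them fell on a given member. Proser1 RNA was 3041 and 2994 normalised counts in KO+Rescue at day 2 and 2828 and 3090 in KO+Rescue mESC, against 872 and 1067 in KO at day 2 and 576 and 502 in KO mESC, and it was 829 and 685 in WT at day 2 and 889 and 550 in WT mESC. Proser1 thus separated KO+Rescue from both other genotypes, while KO against WT did not pass the test at either stage (limma, adjusted p = 0.215 in mESC and 0.368 at day 2), so its RNA does not check the KO label. The stage labels fitted Nanog, a gene of the undifferentiated state, with 518 to 1691 normalised counts at day 2 against 30695 to 45752 in mESC, and Fgf5, with 1449 to 5641 at day 2 against 8.9 to 38.1 in mESC. Pou5f1 stood at 45341 or more in every library of both stages. Of markers of other cell types, the trophoblast gene Elf5 had at most 8.09 normalised counts, the fibroblast gene Col1a1 at most 118, and Dcn 179 to 384 at day 2 against at most 4.05 in mESC, while the 10 fibroblast markers summed to 4019 to 5246 at day 2 and 9453 to 15589.5 in mESC. The 8 trophoblast markers, among them Cdx2 with at most 131, summed to 2793 to 4421 at day 2 and 2665 to 3823 in mESC. The 9 primitive endoderm markers summed to 6292 to 11198 at day 2 and 13962 to 20328 in mESC.

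Among the activating members in mESC, Myc and Mycl were lower in KO than in WT cells, while Mycn did not pass the test. Myc, on chr15:61985341-61990361 of GRCm38 (as are the gene positions that follow), encodes the founding member of the family and a driver of growth and self-renewal. It had 961 and 874 normalised counts in KO mESC, against 2563 and 1789 in WT mESC. The groups did not overlap, and the change was -1.22 ± 0.17 on the log2 scale (SE, n = 2 libraries each), a 2.33-fold lower level (limma, adjusted p = 0.000951). This call held in all 12 alternative settings and leave-outs, with adjusted p of at most 0.0412.

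Mycl, on chr4:122995588-123002490, encodes an activator that is known to favour reprogramming to pluripotency. It had 643 and 558 normalised counts in KO mESC, against 1159 and 864 in WT mESC. The groups did not overlap, and the level was 1.67-fold lower in KO, a change of -0.74 ± 0.18 (SE, limma, adjusted p = 0.0243). The call was lost without library A of WT (-0.53, adjusted p = 0.2), without library A of KO (-0.84, adjusted p = 0.0608) or without library B of KO (-0.64, adjusted p = 0.197).

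Mycn, on chr12:12936093-12941836, encodes the activator best known from neural progenitors and neuroblastoma. It had 2965 and 2978 normalised counts in KO mESC, against 3968 and 2864 in WT mESC, where library A stood above the KO pair and library B below it. The change of -0.18 ± 0.16 (SE, limma, adjusted p = 0.455) turned to 0.05 without library A of WT. In all 3 activators WT library A was above WT library B, at both stages.

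Max, on chr12:76937269-76962323, encodes the obligate partner of activators and antagonists. It had 3187 and 3467 normalised counts in KO mESC, against 3484 and 3059 in WT mESC, and the groups overlapped (log2 change 0.03 ± 0.12, SE, adjusted p = 0.898). Its sign turned with equal library totals, to -0.18. The 5 antagonists did not pass the test either. The largest of their changes was in Mxd4, a member known from cells that leave the cycle and differentiate, on chr5:34176580-34187710. It had 10.1 and 8.09 normalised counts in KO mESC, against 24.9 and 13.2 in WT mESC, without overlap (log2 change -0.94 ± 0.40, SE, adjusted p = 0.143). Mnt, on chr11:74830806-74845725, is the most broadly expressed antagonist, with 546 and 509 normalised counts in KO mESC, against 874 and 590 in WT mESC (log2 change -0.45 ± 0.20, SE, adjusted p = 0.164).

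Mxi1, on chr19:53310128-53373293, encodes an antagonist also known as MXD2, and had 1038 and 1048 normalised counts in KO mESC, against 1257 and 1398 in WT mESC (log2 change -0.35 ± 0.14, SE, adjusted p = 0.136). Mxd1, on chr6:86647044-86669234, a gene of terminally differentiating cells, had 39.2 and 37.8 normalised counts in KO mESC, against 61.6 and 52.9 in WT mESC (adjusted p = 0.288). Mxd3, on chr13:55325170-55329900, the antagonist known from cycling progenitors, was the only one of the 5 whose counts were above WT, with 426 and 457 normalised counts in KO mESC, against 349 and 408 in WT mESC (adjusted p = 0.507). It shares 103 bases with Prelid1, which had 6501 to 10346 normalised counts, so reads in the shared stretch cannot be told apart if strand was not used in counting, which the sources used here do not state.

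In all, 2 of the 9 members were called in KO against WT mESC, both lower, against 9.48% of all tested genes, and 5 of 9 had an unadjusted p under 0.05. The median change over the 9 was -0.45, against -0.04 over all tested genes. The count was 1 without library A of WT, without library A of KO or without library B of KO, and 4 without library B of WT, which added Mnt (-0.73, adjusted p = 0.0293) and Mxd4 (-1.37, adjusted p = 0.046). In bulk RNA, less RNA per cell and fewer expressing cells cannot be told apart.

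**Figure D1:**
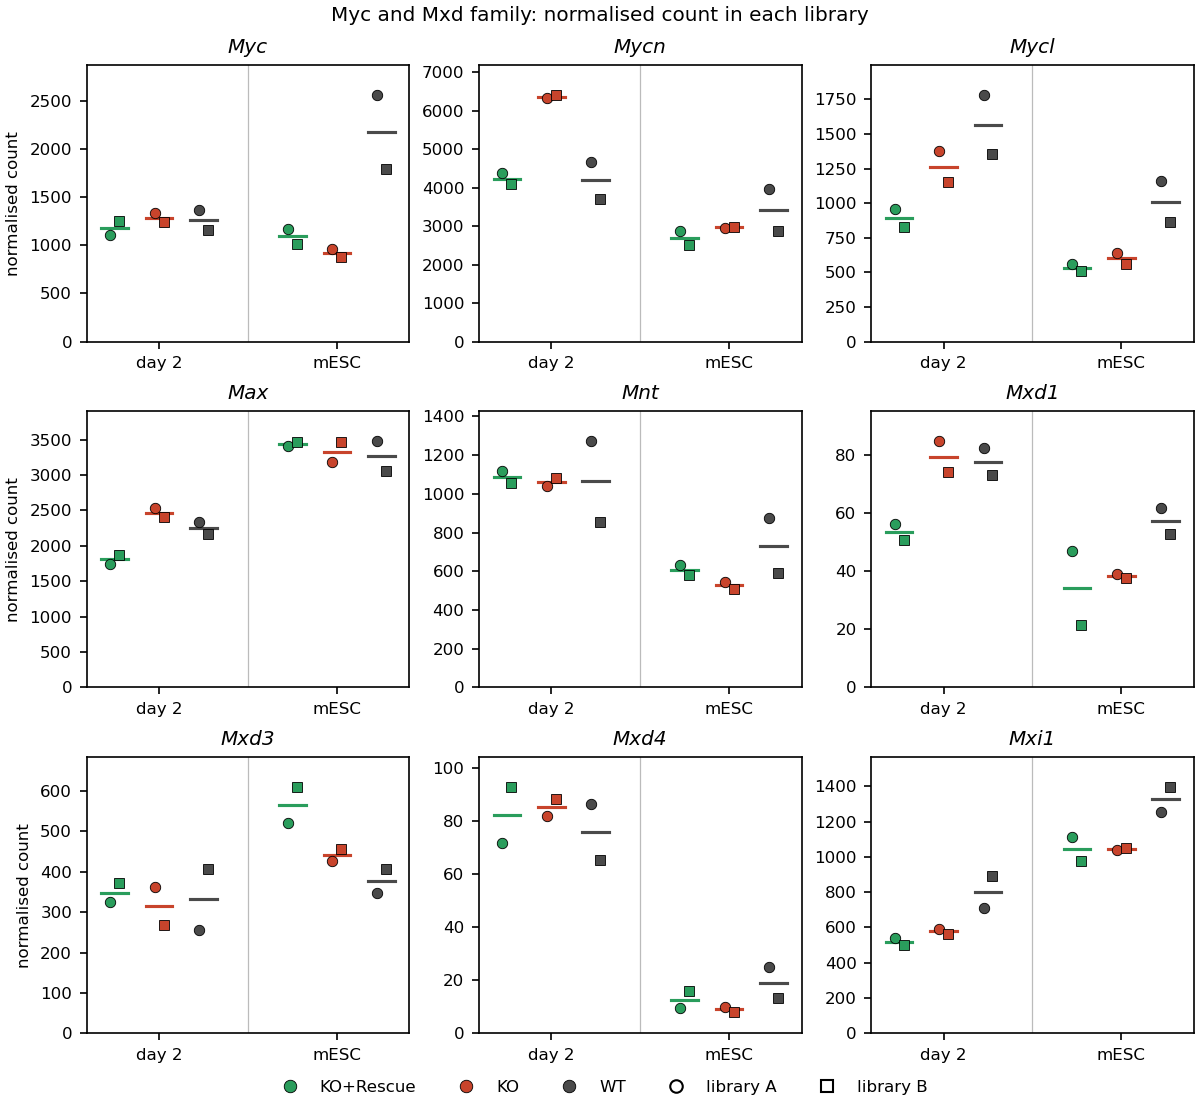
Normalised count (y axis, linear, from 0) of each of the 9 genes in every library, at day 2 and in mESC, for KO+Rescue (green), KO (red) and WT (grey). Circles are library A, squares library B, and bars the mean of the 2. In mESC the Myc points of KO, 961 and 874, lie below those of WT, 2563 and 1789, and at day 2 the Mycn points of KO, 6325 and 6415, lie above all others.

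At day 2 the pattern among the activators was another. Mycn had 6325 and 6415 normalised counts in KO, against 4671 and 3709 in WT, and the groups did not overlap. Its level was 1.53-fold higher in KO, a change of 0.61 ± 0.16 (SE, limma, adjusted p = 0.0421). The call was lost without library B of WT (0.45, adjusted p = 0.156), library A of KO (0.62, adjusted p = 0.199) or library B of KO (0.60, adjusted p = 0.250), and with equal library totals (0.51, adjusted p = 0.245). Its adjusted p over the 12 alternatives ran from 0.00354 to 0.250.

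Myc did not differ beyond the spread between libraries at day 2, with 1336 and 1240 normalised counts in KO, against 1371 and 1159 in WT (log2 change 0.03 ± 0.17, SE, 95% interval -0.34 to 0.40, adjusted p = 0.949). Mycl had 1378 and 1151 normalised counts in KO, against 1783 and 1352 in WT, and the pairs overlapped (log2 change -0.30 ± 0.18, SE, adjusted p = 0.413). Max had 2534 and 2405 normalised counts in KO, against 2332 and 2170 in WT, without overlap but short of the threshold (log2 change 0.13 ± 0.12, SE, adjusted p = 0.597).

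Among the antagonists at day 2, Mxi1 stood nearest to the threshold. It had 594 and 563 normalised counts in KO, against 713 and 891 in WT, and the groups did not overlap (log2 change -0.46 ± 0.14, SE, adjusted p = 0.0879). DESeq2 on the recovered read pairs gave it an adjusted p of 0.0392, and limma without library A of WT one of 0.0476. For Mnt, Mxd1, Mxd3 and Mxd4 the KO and WT libraries overlapped at day 2, with log2 changes between -0.06 and 0.18 and adjusted p of at least 0.866. In all, 1 of the 9 members was called at day 2, against 5.21% of all tested genes, and 2 of 9 had an unadjusted p under 0.05. The median change over the members was 0.03, against 0.02 over all tested genes. The count was 0 without library B of WT, library A of KO or library B of KO, and 2 without library A of WT.

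The effect of KO on Myc differed between the stages. The KO change at day 2 minus that in mESC was 1.25 ± 0.24 on the log2 scale (SE, limma, adjusted p = 0.0237), and Myc was the only 1 of the 9 members called in this comparison, against 1.13% of all tested genes. The difference kept its sign in all 18 alternatives and passed the threshold in 9 of them, with adjusted p from 0.000233 to 0.147. It was lost without library A of WT mESC (0.99, adjusted p = 0.0603), library B of WT at day 2 (1.13, adjusted p = 0.0687), library A of KO mESC (1.32, adjusted p = 0.069), library B of KO mESC (1.18, adjusted p = 0.121), library A of KO at day 2 (1.20, adjusted p = 0.147) or library B of KO at day 2 (1.31, adjusted p = 0.0932). For Mycn the same difference was 0.80 ± 0.22 (SE, adjusted p = 0.132), and it passed the threshold with DESeq2 (0.81, adjusted p = 0.0398), without library A of WT at day 2 (0.96, adjusted p = 0.0488) and without library B of WT mESC (1.03, adjusted p = 0.0234). For Mycl it was 0.44 ± 0.26 (SE, adjusted p = 0.507).

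Re-expression of PROSER1 in mESC was followed by no called change among the members. Myc had 1169 and 1015 normalised counts in KO+Rescue mESC, against 961 and 874 in KO mESC, without overlap (log2 change 0.25 ± 0.17, SE, 95% interval -0.12 to 0.61, adjusted p = 0.569). Mycl had 560 and 509 normalised counts in KO+Rescue mESC, against 643 and 558 in KO mESC, with overlap (log2 change -0.17 ± 0.18, SE, adjusted p = 0.731). Against WT mESC, both were lower in KO+Rescue. The change of Myc was -0.97 ± 0.17 (SE, 1.97-fold lower, adjusted p = 0.00559), and that of Mycl -0.90 ± 0.18 (SE, 1.87-fold lower, adjusted p = 0.00992). The WT libraries are shared with the KO comparison, so these are not a separate sighting of a low level.

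By count, limma called 0 of the 9 members in KO+Rescue against KO mESC, with 0 at an unadjusted p under 0.05 and 0 by either edgeR or DESeq2, against 1.51% of all tested genes. In KO+Rescue against WT mESC it called 2 of 9, against 18.2%. This count was 1 without library A of WT, where Mycl missed the threshold (-0.69, adjusted p = 0.0917), and 0 without library B of KO+Rescue, where Myc (-0.87, adjusted p = 0.0624) and Mycl (-0.84, adjusted p = 0.0973) both missed it. Mxd3 had 521 and 611 normalised counts in KO+Rescue mESC, against 349 and 408 in WT mESC, without overlap (log2 change 0.58 ± 0.22, SE, adjusted p = 0.084). Mxd1 had 47.1 and 21.4 normalised counts in KO+Rescue mESC, against 61.6 and 52.9 in WT mESC (adjusted p = 0.108).

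At day 2, Mycn and Max had lower counts in KO+Rescue than in KO in every library, but limma did not call them. Mycn had 4381 and 4084 normalised counts in KO+Rescue, against 6325 and 6415 in KO, a 1.51-fold lower level (log2 change -0.59 ± 0.16, SE, 95% interval -0.93 to -0.25, limma, adjusted p = 0.0834). Max had 1741 and 1875 normalised counts in KO+Rescue, against 2534 and 2405 in KO (log2 change -0.45 ± 0.12, SE, adjusted p = 0.0733). Mycl had 957 and 830 normalised counts in KO+Rescue, against 1378 and 1151 in KO (log2 change -0.50 ± 0.18, SE, adjusted p = 0.186).

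Limma called 0 of the 9 members in KO+Rescue against KO at day 2, against 1.83% of all tested genes, while 3 had an unadjusted p under 0.05. EdgeR also called 0, and DESeq2 called 2, Mycn (-0.60, adjusted p = 0.0202) and Max (-0.45, adjusted p = 0.0136). A fit of the compared groups alone called 3, with Mycl added. Relative to WT, Mycn in KO+Rescue at day 2 overlapped with the WT pair of 4671 and 3709 (log2 change 0.02 ± 0.16, SE, 95% interval -0.32 to 0.37, adjusted p = 0.943).

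Mycl and Mxi1 were the 2 of 9 members called in KO+Rescue against WT at day 2, both lower, against 11.1% of all tested genes. Mycl, at 957 and 830 normalised counts in KO+Rescue against 1783 and 1352 in WT, was 1.74-fold lower (log2 change -0.80 ± 0.18, SE, adjusted p = 0.0156). Mxi1, at 542 and 498 normalised counts in KO+Rescue against 713 and 891 in WT, was 1.53-fold lower (log2 change -0.62 ± 0.14, SE, adjusted p = 0.0174). Both calls were lost without library A of KO+Rescue (Mycl, adjusted p = 0.0622; Mxi1, adjusted p = 0.0764) and without library B of KO+Rescue (adjusted p = 0.137 for each). That of Mycl was also lost without library A of WT (-0.60, adjusted p = 0.113) and that of Mxi1 without library B of WT (-0.46, adjusted p = 0.0671). The rescue change at day 2 minus that in mESC was called for 0 of 9 members by limma, edgeR and DESeq2, against 0.0847% of all tested genes by limma, and 1 of 9, Max, had an unadjusted p under 0.05 (-0.50 ± 0.17, SE, adjusted p = 0.354).

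**Figure D2:**
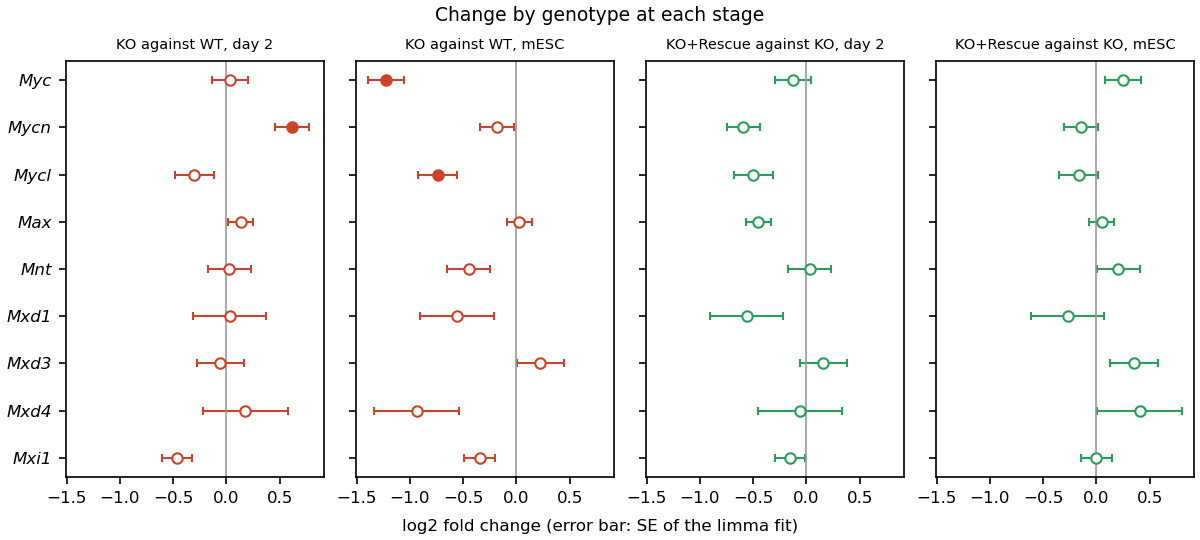
Log2 fold change (x axis) of each of the 9 genes in KO against WT (red) and in KO+Rescue against KO (green), at day 2 and in mESC. Points are limma estimates, bars their SE, and filled points have an adjusted p under 0.05. The filled points are Mycn at day 2, at 0.61, and Myc and Mycl in mESC, at -1.22 and -0.74, all in KO against WT, and the KO+Rescue panels hold no filled point.

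Between the stages, Mycl, Mnt and Mxd4 were higher at day 2 than in mESC in all 3 genotypes and Max and Mxi1 lower, with all calls at an adjusted p under 0.05. Mycn was higher at day 2 in KO and in KO+Rescue, and Myc was lower at day 2 in WT and higher at day 2 in KO. Of the 9 members, 7 were called in KO+Rescue, against 58.2% of all tested genes, 8 in KO, against 60.1%, and 6 in WT, against 51.9%. Most tested genes were called between the stages, so these counts alone say little about the members, and the count in WT was 4 with equal library totals, without library A at day 2 or without library B of mESC.

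Mycn had 4381 and 4084 normalised counts at day 2 against 2878 and 2506 in mESC of KO+Rescue (log2 change 0.66 ± 0.16, SE, adjusted p = 0.00334). In KO it had 6325 and 6415 at day 2 against 2965 and 2978 in mESC, a 2.14-fold rise (1.10 ± 0.16, SE, adjusted p = 6.4e-05). In WT it had 4671 and 3709 at day 2 against 3968 and 2864 in mESC, with overlap (0.30 ± 0.16, SE, adjusted p = 0.125), and it passed the threshold without library A of mESC (0.54, adjusted p = 0.0124) or without library B at day 2 (0.47, adjusted p = 0.0381). The calls in KO+Rescue and KO held in all 12 alternatives.

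Myc had 1111 and 1253 normalised counts at day 2 against 1169 and 1015 in mESC of KO+Rescue, with overlap (log2 change 0.12 ± 0.17, SE, adjusted p = 0.575). In KO it had 1336 and 1240 at day 2 against 961 and 874 in mESC (0.49 ± 0.17, SE, adjusted p = 0.0237). In WT it had 1371 and 1159 at day 2 against 2563 and 1789 in mESC, a 1.70-fold lower level (-0.76 ± 0.17, SE, adjusted p = 0.00213). At day 2 the 6 libraries of the 3 genotypes lay between 1111 and 1371, while in mESC they lay between 874 and 2563. The rise in KO was lost without library A of KO at day 2 (0.44, adjusted p = 0.123), library B of KO mESC (0.42, adjusted p = 0.134) or library B of KO at day 2 (0.54, adjusted p = 0.0598), and the fall in WT with equal library totals (-0.53, adjusted p = 0.0717).

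Mycl rose in each genotype, with log2 changes of 0.74 ± 0.18 in KO+Rescue, 1.07 ± 0.18 in KO and 0.63 ± 0.18 in WT (SE, adjusted p = 0.00365, 0.000239 and 0.0105). In WT the call was lost without library A at day 2 (0.43, adjusted p = 0.0998) or without library B of mESC (0.42, adjusted p = 0.103). Max fell by 0.93 ± 0.12 in KO+Rescue, to 1741 and 1875 normalised counts at day 2 against 3406 and 3473 in mESC. It fell by 0.43 ± 0.12 in KO, to 2534 and 2405 at day 2 against 3187 and 3467 in mESC, and by 0.54 ± 0.12 in WT, to 2332 and 2170 at day 2 against 3484 and 3059 in mESC (adjusted p = 2.02e-05, 0.00667 and 0.00189). The Max call in KO was lost without library B of KO mESC (-0.37, adjusted p = 0.0704) or library B of KO at day 2 (-0.39, adjusted p = 0.0528). With equal library totals the Max change was -0.09 in KO (adjusted p = 0.656) and -0.30 in WT (adjusted p = 0.143).

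Among the antagonists, Mxd4 had the largest stage change, from counts near the filter. It had 71.6 and 93.0 normalised counts at day 2 against 9.41 and 16.0 in mESC of KO+Rescue, 82.0 and 88.3 against 10.1 and 8.09 in KO, and 86.6 and 65.2 against 24.9 and 13.2 in WT. The log2 changes were 2.63 ± 0.40, 3.10 ± 0.40 and 1.99 ± 0.40 (SE, 6.20, 8.57 and 3.97-fold, adjusted p = 9.51e-05, 2.28e-05 and 0.00103), and day 2 and mESC did not overlap in any genotype. Mnt rose by 0.84 ± 0.20 in KO+Rescue, 1.01 ± 0.20 in KO and 0.54 ± 0.20 in WT (SE, adjusted p = 0.00312, 0.000825 and 0.0387). In WT its libraries overlapped between the stages, 1274 and 854 normalised counts at day 2 against 874 and 590 in mESC, and the call was lost without library A at day 2 (0.25, adjusted p = 0.353) or without library B of mESC (0.26, adjusted p = 0.341).

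Mxi1 fell in each genotype and its calls held in all alternatives. It had 542 and 498 normalised counts at day 2 against 1110 and 979 in mESC of KO+Rescue (log2 change -1.004 ± 0.14, SE, adjusted p = 5.99e-05). In KO it had 594 and 563 at day 2 against 1038 and 1048 in mESC (-0.85 ± 0.14, SE, adjusted p = 0.00023), and in WT 713 and 891 at day 2 against 1257 and 1398 in mESC (-0.73 ± 0.14, SE, adjusted p = 0.000886). Mxd3 fell in KO+Rescue alone by the threshold (-0.70 ± 0.22, SE, adjusted p = 0.0161), with changes of -0.50 ± 0.22 in KO (adjusted p = 0.0656) and -0.22 ± 0.22 in WT (adjusted p = 0.423), and whether these differ from KO+Rescue was tested only against KO (-0.20 ± 0.31, SE, adjusted p = 0.909). Its call in KO+Rescue was lost with equal library totals (-0.33, limma, adjusted p = 0.195), without library A at day 2 (-0.60) or without library B of mESC (-0.58).

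Mxd1 rose in KO (1.02 ± 0.34, SE, adjusted p = 0.0203), to 84.9 and 74.1 normalised counts at day 2 against 39.2 and 37.8 in mESC. The changes were 0.73 ± 0.34 in KO+Rescue (adjusted p = 0.0832) and 0.44 ± 0.34 in WT (adjusted p = 0.304). The call in KO was lost when any single KO library was left out, with adjusted p = 0.0609 without library A of mESC, 0.0791 without library B of mESC, 0.107 without library A of day 2 and 0.0561 without library B of day 2. Without library A of KO+Rescue mESC, Mxd1 also passed in that genotype (1.28, adjusted p = 0.00624). The count of 8 members in KO was 5 without library B of KO mESC or without library B of KO at day 2.

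**Figure D3:**
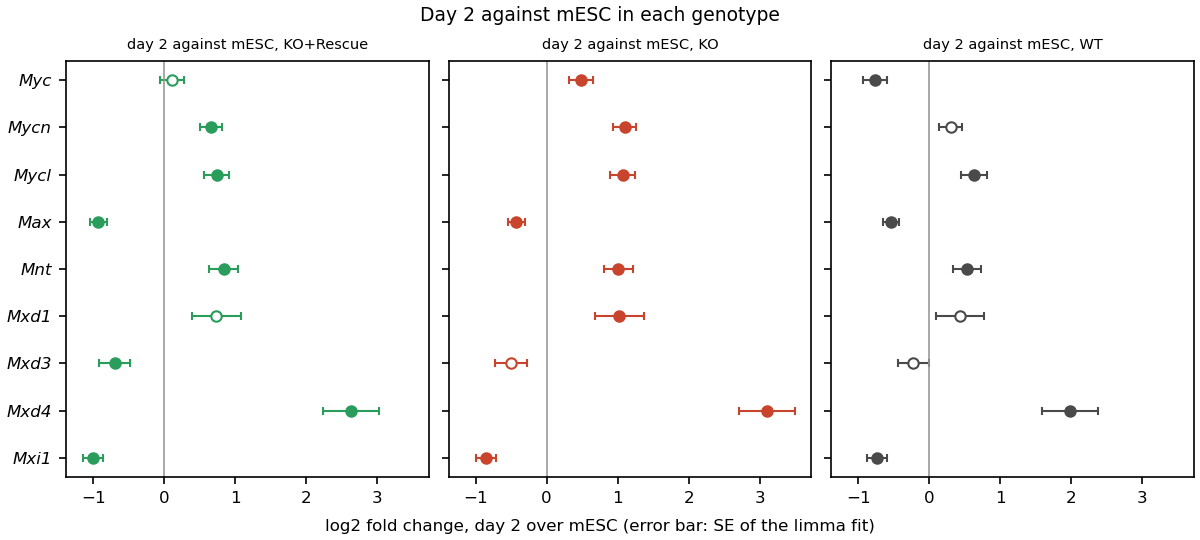
Log2 fold change (x axis) of each of the 9 genes at day 2 over mESC in KO+Rescue (green), KO (red) and WT (grey). Points are limma estimates, bars their SE, and filled points have an adjusted p under 0.05. Mxd4 lies farthest to the right in all 3 panels, at 2.63, 3.10 and 1.99, and Myc lies at 0.12, 0.49 and -0.76.

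Levels were compared between members as normalised counts per kilobase of the longest annotated transcript. At day 2, Mycn came first in all 3 genotypes, at 1253 ± 62.1 in KO+Rescue, 1885 ± 18.8 in KO and 1240 ± 201 in WT (SD, n = 2 libraries each), with Max next at 659 ± 34.5, 901 ± 33.4 and 821 ± 41.7 and then Myc at 498 ± 42.3, 542 ± 28.7 and 533 ± 63.1. In mESC the first place was that of Max, at 1254 ± 17.3 in KO+Rescue, 1213 ± 72.2 in KO and 1193 ± 110 in WT. Mycn followed at 797 ± 77.8, 879 ± 2.84 and 1011 ± 231, and Myc at 460 ± 45.8, 386 ± 26.0 and 916 ± 230. In WT mESC the libraries of Max overlapped with those of Mycn, and those of Mycn with those of Myc. Further down, Mnt and Mxd3 overlapped in every genotype at day 2, as did Mycl and Mxi1 in WT mESC. Mxd1 and Mxd4 took the last 2 places in every group, at 1.96 to 18.4 per kilobase. The order rests on transcript length. With the shortest annotated transcript 30 of the 54 places changed, Max came before Mycn in all 3 genotypes at day 2 as well, and Myc before Mycn in WT mESC.

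Summed per kilobase, Myc, Mycn and Mycl stood at 2004 and 1945 in KO+Rescue, 2780 and 2709 in KO and 2407 and 1925 in WT at day 2, and at 1484 and 1297, 1443 and 1389, and 2544 and 1817 in mESC. Mycn made up 64.7% and 62.2% of that sum in KO+Rescue, 67.3% and 70.1% in KO and 57.4% and 57.0% in WT at day 2. In mESC its share was 57.4% and 57.2% in KO+Rescue, 60.8% and 63.4% in KO and 46.2% and 46.6% in WT. The share of Mycn was thus above that of both WT libraries in every KO and KO+Rescue library of the same stage, and higher at day 2 than in mESC in each genotype. These shares rest on the longest transcripts. With the shortest, Myc stood above Mycn in WT mESC, at means of 5711 and 5016 per kilobase.

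The 5 antagonists summed to between 500.0 and 655 per kilobase in all 12 libraries. The ratio of the activating to the antagonist sum was 3.79 and 3.61 in KO+Rescue, 5.03 and 5.42 in KO and 4.30 and 3.24 in WT at day 2, and 2.31 and 1.98, 2.60 and 2.45, and 4.08 and 2.90 in mESC. At day 2 both KO libraries lay above the other 4, and in mESC all KO and KO+Rescue libraries lay below both WT libraries. These sums and ratios are descriptions of RNA, without a test, and rest on the longest transcripts.

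**Figure D4:**
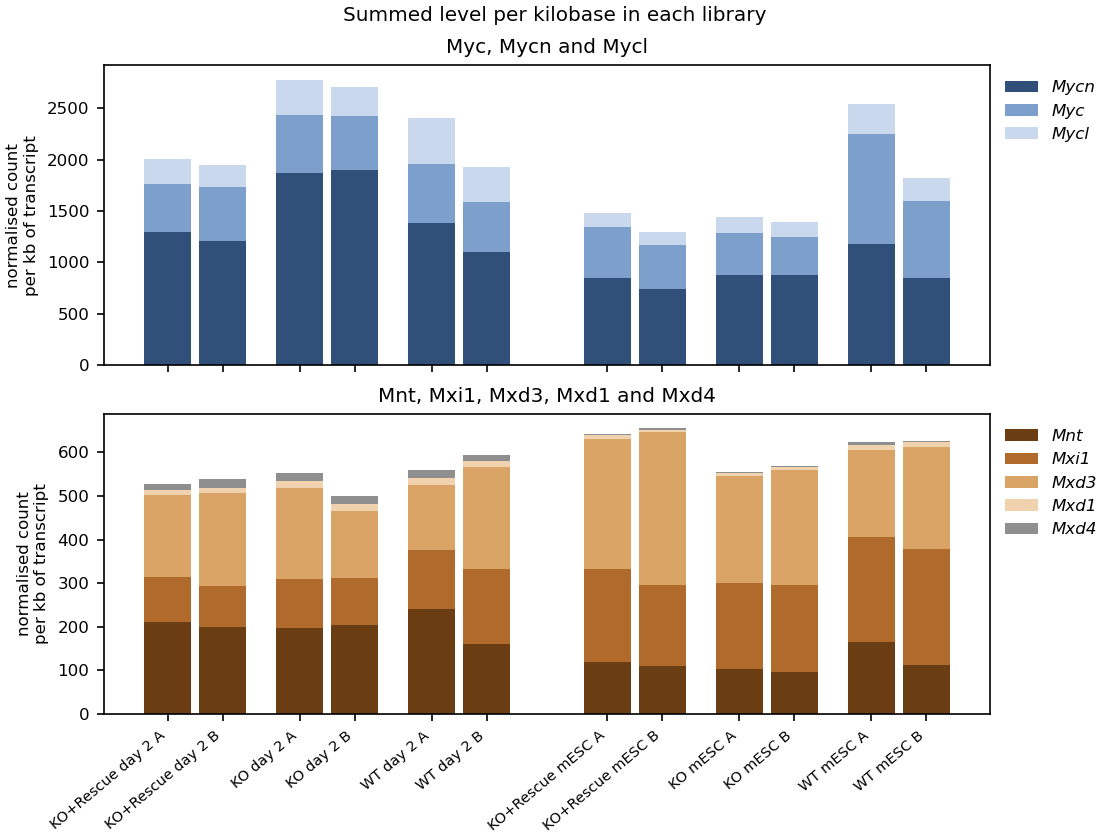
Summed normalised count per kilobase of transcript (y axis, linear, from 0) of the activating members (top) and of the antagonists (bottom) in each library, stacked by gene, with day 2 left and mESC right. Bars of Mycn, Myc and Mycl reach 2780 and 2709 in KO at day 2, against 2407 and 1925 in WT, and 1443 and 1389 in KO mESC, against 2544 and 1817 in WT mESC. The antagonist bars stay between 500.0 and 655.

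The genes most like each activator were sought among 12339 genes averaging 50 normalised counts or more, by Pearson correlation of log2 values over the 12 libraries, which share stage, genotype and scaling and are given without a p. For Myc they were Cbll1 (r = 0.95), Jarid2 (r = 0.94), a cofactor of Polycomb repressive complex 2, and Shmt2 (r = 0.94), the mitochondrial enzyme of serine to glycine conversion. For Mycn they were Dab2ip, Cep164 and Trib1, each at r = 0.97. For Mycl they were Acly (r = 0.98), which makes cytosolic acetyl-CoA, Mprip (r = 0.98) and Dnajc2 (r = 0.98). With the mean of each stage subtracted, the genes nearest to Myc were Aldh18a1 (r = 0.98), of proline synthesis, Nxf1 (r = 0.98), of RNA export, and Myrf (r = 0.97). Those nearest to Mycn were Inafm2 (r = 0.96), Dab2ip (r = 0.95) and Tmem167b (r = 0.95), and those nearest to Mycl were Slc9a3r1 (r = 0.99), Paxip1 (r = 0.98) and Gnas (r = 0.98).

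Myrf and Inafm2, each named by the rule above, show what such likeness looks like. Myrf, a membrane-bound transcription factor, had 166 and 131 normalised counts in KO mESC, against 666 and 359 in WT mESC, and 1987 and 2117 in KO at day 2, against 1878 and 1697 in WT. Inafm2 had 203 and 199 normalised counts in KO at day 2, against 96.9 and 78.3 in WT, and 22.4 and 25.6 in KO mESC, against 37.9 and 18.3 in WT mESC.

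Counts of called genes in the lists that follow stand against 9.48% of all tested genes in KO against WT mESC and 5.21% at day 2, and against 58.2% in KO+Rescue, 60.1% in KO and 51.9% in WT between the stages. For KO+Rescue against KO the shares were 1.51% in mESC and 1.83% at day 2, so few or no calls in a short list say little. For the difference of the KO effects the share was 1.13%. Of genes around the family, the list of the extended network and its corepressors held 10 genes, of which 2 were higher and 2 lower in KO than in WT mESC. Sin3b (0.54 ± 0.12, SE, adjusted p = 0.0161), a scaffold of the SIN3 corepressor, and Hdac2 (0.37 ± 0.11, SE, adjusted p = 0.0446), its histone deacetylase, were higher. Mlxipl (-2.14 ± 0.39, SE, adjusted p = 0.0053) and Mlxip (-0.55 ± 0.15, SE, adjusted p = 0.0367), glucose-responsive factors that dimerise with MLX, were lower. Mlxipl had a mean of only 8.64 normalised counts in KO mESC, against 43.8 in WT mESC. Without library A of WT none of these 4 passed, without library B of WT the counts were 1 higher and 4 lower, without either KO library they were 0 and 1, and with equal library totals 0 and 3. At day 2 limma called 0 of the 10 in KO against WT, with 2 at an unadjusted p under 0.05, edgeR called 0 and DESeq2 1. Hdac1, the most abundant gene of the list, stood at 0.14 ± 0.17 (SE, adjusted p = 0.717). The list of 17 Myc cofactors and factors of its turnover had 1 called gene in KO against WT at either stage, Pim1, a kinase induced by STAT3, lower by 0.64 ± 0.14 in mESC and by 0.59 ± 0.14 at day 2 (SE, adjusted p = 0.0126 and 0.026). Pim1 missed the threshold without library A of WT or library B of KO in mESC, and without library B of WT or either KO library at day 2.

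Of 32 Myc-induced genes of the nucleolus and ribosome assembly, 0 were higher and 1 lower in KO than in WT mESC (Polr1b, a subunit of RNA polymerase I, -0.53 ± 0.15, SE, adjusted p = 0.0444), with a median of -0.08 against -0.04 over all genes. The count of lower genes was 0 without library A of WT or either KO library, and 6 without library B of WT. At day 2 limma called 0 of the 32 in KO against WT, with 1 at an unadjusted p under 0.05, edgeR called 0 and DESeq2 1 (median 0.09, against 0.02 over all genes). Npm1, the most abundant gene of the list, which encodes nucleophosmin, stood at 0.18 ± 0.29 (SE, adjusted p = 0.799). At day 2 against mESC, 4 were higher and 9 lower in KO+Rescue (median -0.16), 5 higher and 11 lower in KO (median -0.21), and 0 higher and 16 lower in WT (median -0.36), against medians of -0.03, 0.02 and -0.02 over all genes. The 13, 16 and 16 called genes of 32 made up smaller shares than among all tested genes. In WT the smallest adjusted p were those of Bop1 (-0.88), Imp4 (-1.10) and Ppan (-0.51), all ribosome assembly factors. Among those higher in KO were Utp20 (0.72), Ncl (0.73) and Polr1a (0.67), chosen after their values were seen. With equal library totals the median turned to 0.12 in KO, and the counts became 10 higher and 4 lower in KO+Rescue, 6 and 5 in KO, and 1 and 6 in WT. Over all alternatives the median reached 0.20 in KO+Rescue as well, while in WT it stayed at -0.13 or below. The counts in KO+Rescue were 0 higher and 7 lower without library B at day 2, and those in KO 1 and 6 without library B of mESC.

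Of 36 Myc-induced genes of metabolism and growth, 0 were higher and 2 lower in KO than in WT mESC. Ccnd2, which encodes cyclin D2, had a mean of 103 normalised counts in KO mESC, against 671 in WT mESC (-2.69 ± 0.21, SE, adjusted p = 1.58e-05), and Mthfd2, of mitochondrial folate metabolism, a mean of 3271 against 5086 (-0.64 ± 0.11, SE, adjusted p = 0.0036). Without library B of WT the counts were 3 higher and 7 lower, and without library B of KO 0 and 1. Both also differed between the stages in their response to KO, by 2.71 ± 0.30 for Ccnd2 (adjusted p = 0.0018) and 0.83 ± 0.15 for Mthfd2 (SE, adjusted p = 0.0194). At day 2 in KO against WT, Gart, of purine synthesis, was the only 1 of the 36 called (0.59 ± 0.15, SE, adjusted p = 0.0339), a call lost when any of the 4 libraries was left out, and in KO+Rescue against KO it was Ccnd2, lower by 1.00 ± 0.21 (SE, adjusted p = 0.0342). This call of Ccnd2 was also lost in some of the alternatives. At day 2 against mESC, 4 were higher and 12 lower in KO+Rescue, 6 higher and 8 lower in KO, and 2 higher and 11 lower in WT, shares of 44.4%, 38.9% and 36.1% that were below those of all tested genes. Tfrc, the transferrin receptor, fell in all 3, by 1.65, 2.00 and 1.47 on the log2 scale. Over the alternatives the median stage change of the 36 ran from -0.28 to 0.15 in KO+Rescue and from -0.20 to 0.16 in KO. In WT it ran from -0.30 to -0.02, so the sign depended on the setting in KO+Rescue and KO.

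Of 16 Myc-repressed genes, 11 were higher and 2 lower at day 2 than in mESC in KO+Rescue (median 0.72), 10 higher and 2 lower in KO (median 0.50), and 11 higher and 2 lower in WT (median 0.61), shares of 81.2%, 75.0% and 81.2%. Among them Cdkn1c, a cell cycle inhibitor, rose by 2.61, 2.19 and 2.86, and Klf6 by 2.17, 1.58 and 1.87, while Cpt1a, of mitochondrial fatty acid uptake, stood at -4.23, -3.87 and -3.47. In KO against WT mESC 0 were higher and 2 lower, Ndrg2 (-0.74) and Cdkn1c (-0.64), and at day 2 0 were higher and 4 lower, led by Cdkn1c (-1.31 ± 0.15, SE, adjusted p = 0.000282), Tgfbi (-2.03) and Gadd45b (-1.08). The count of 4 was 2 without library A of WT and 1 without either KO library, and that of 2 in mESC was 1 without library A of WT or library A of KO, 0 without library B of KO and 3 without library B of WT. In KO+Rescue against KO at day 2, Cdkn1a (-0.71 ± 0.16, SE, adjusted p = 0.0412) was the only 1 of the 16 called, and the call was lost in some of the alternatives. Of 17 proliferation genes, 0 were higher and 1 lower in KO than in WT mESC, Top2a (-0.57 ± 0.14, SE, adjusted p = 0.0282), which missed the threshold without library A of WT or either KO library.

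The list of read-outs of LIF with STAT3, of Wnt and of ERK, pathways known to act on Myc genes, held 14 genes, among them E2f1 and E2f3. In KO against WT mESC 0 were higher and 6 lower, with a median of -0.68 against -0.04 over all genes. Egr1, an immediate early gene of ERK, had a mean of 14.4 normalised counts in KO mESC, against 156 in WT mESC (-3.39 ± 0.34, SE, adjusted p = 0.000109). Tcf7, of Wnt signalling, was lower by 1.07 ± 0.14 (SE, adjusted p = 0.000647) and Spry4, an ERK feedback inhibitor, by 1.34 ± 0.19 (SE, adjusted p = 0.000998). At day 2 0 were higher and 5 lower, with a median of -0.39, led by Fos (-3.06 ± 0.42, SE, adjusted p = 0.000808), Stat3 (-1.11 ± 0.18, SE, adjusted p = 0.00258) and Egr1 (-1.97 ± 0.34, SE, adjusted p = 0.0045). In KO+Rescue against KO limma called 0 of the 14 at either stage, with 2 in mESC and 4 at day 2 at an unadjusted p under 0.05. EdgeR called 0 and 2, and DESeq2 1 and 2. The count of 6 in mESC was 4 without library A of WT or without library B of KO, and that of 5 at day 2 was 2 without library A of KO. The part of these genes in the levels of Myc and Mycl was not tested.

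Between the stages, the cofactor and turnover list had 3 higher and 7 lower genes of 17 in KO+Rescue, 3 and 7 in KO, and 1 and 8 in WT, shares of 58.8%, 58.8% and 52.9% that were near those of all tested genes. Among those lower in WT were Pim3 (-1.25), a relative of Pim1, Skp2 (-1.08), a ubiquitin ligase component that acts on MYC, and Ruvbl2 (-0.72), an ATPase of chromatin remodelling complexes. The extended network had 3 higher and 4 lower of 10 in KO+Rescue, 3 and 4 in KO, and 2 and 5 in WT, or 70.0% in each. The proliferation list had 1 higher and 7 lower of 17 in KO+Rescue, 1 and 8 in KO, and 1 and 7 in WT, below the shares of all tested genes (47.1%, 52.9% and 47.1%). Over the alternatives its median ran from -0.40 to 0.04 in KO+Rescue, -0.29 to 0.11 in KO and -0.39 to -0.02 in WT. That of the cofactor and turnover list ran from -0.34 to 0.05, -0.26 to 0.19 and -0.37 to -0.02. The signal read-outs had 6 and 6 of 14 in KO+Rescue, 6 and 6 in KO, and 4 and 4 in WT, or 85.7%, 85.7% and 57.1%.

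**Figure D5:**
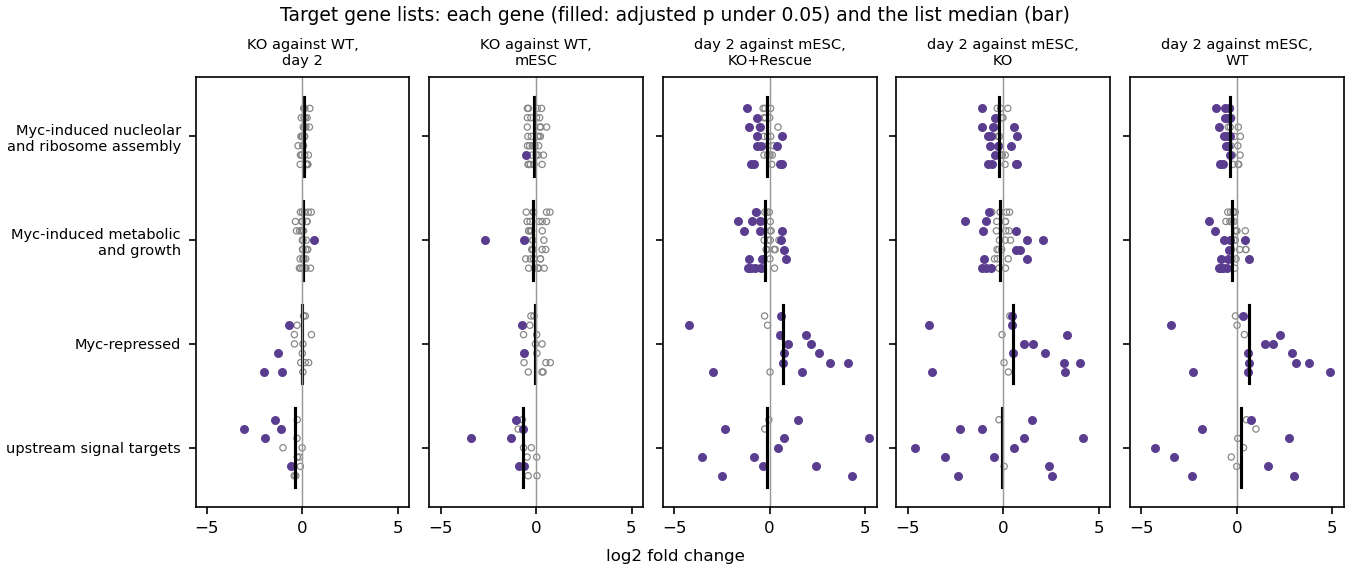
Log2 fold change (x axis) of every tested gene of 4 lists (rows) in KO against WT at day 2 and in mESC, and at day 2 against mESC in KO+Rescue, KO and WT (columns). Points are genes, filled where the adjusted p was under 0.05, vertical bars are list medians, and the vertical spread of points has no meaning. The median of the signal read-outs lies left of 0 in both KO against WT panels (-0.39 and -0.68), and that of the Myc-repressed genes right of 0 in the stage panels (0.72, 0.50 and 0.61).

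Cell state markers also differed between the genotypes within a stage, and their part in the values above was not tested. The summed level of 12 pluripotency markers was 86819 to 94560 normalised counts in KO+Rescue, 94957 to 103708 in KO and 68345 to 82123 in WT at day 2, and 218428 to 236229, 221598 to 231320 and 183666 to 196389 in mESC. Pou5f1 alone held 84294 and 76372 in KO at day 2, so the sum mainly follows this gene. Gene by gene, 1 was called higher and 3 lower in KO than in WT at day 2 (33.3%, against 5.21% of all tested genes). In mESC 0 were higher and 1 lower (8.3%, against 9.48%). Sox2 had 3611 and 3818 normalised counts in KO at day 2, against 4543 and 4584 in WT. Nanog had 590 and 564 normalised counts in KO+Rescue, 1691 and 1621 in KO and 518 and 865 in WT at day 2. Fgf5 had 2504 and 2075 normalised counts in KO+Rescue at day 2, 5641 and 5359 in KO and 2062 and 1449 in WT, so both KO libraries stood above the other 4 for this marker of the formative and primed state, as they did for Mycn. Of 10 formative and primed markers, 3 were called higher and 0 lower in KO than in WT at day 2 (30.0%). Of 7 neural markers, 2 were called higher and 0 lower (28.6%). In KO+Rescue against KO at day 2 limma called 0 genes of either list, against 1.83% of all tested genes. Summed mesendoderm markers (9 genes) were 112 to 142 in KO+Rescue, 458 to 481 in KO and 173 to 231 in WT at day 2. In mESC the order was another, with 894 to 950.5 in KO+Rescue, 790.5 to 914 in KO and 1567 to 1618 in WT.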

How the data were processed

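RNA of 12 libraries, 2 in each of 6 groups, was sequenced. The authors trimmed reads with Trimmomatic, aligned them with STAR to mm10 and counted read pairs per RefSeq gene with featureCounts, and the strand setting and the versions are not given in the sources used here. They deposited normalised counts, a signal scaled by DESeq2 size factors and not divided by gene length. 100% of the deposited values were whole multiples of the value of 1 read (tolerance 0.001), so read pairs were recovered for count tests. Totals ran from 38634668 to 66450803 read pairs. The KO and KO+Rescue columns carry a line code, without and with the letter R, which was read as those groups by inference, and 0 per-sample columns were left out.

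Groups came from the sample labels. Genes whose normalised counts averaged 10 or more (15341 of 35976) were tested with limma 3.58.1 in R 4.3.3 on log2(value + 1), with 6 group means, a mean-variance trend, 6 residual and 6.92 prior degrees of freedom, two-sided, for 11 contrasts. P-values were adjusted by the Benjamini-Hochberg method over all tested genes within a contrast, with a threshold of 0.05. A fold change is on the log2(value + 1) scale, which understates the change of low genes. The fit was tested on simulated data. With 2 libraries a group, the spread behind each p-value is that of these libraries and may be technical. Intervals are 95% intervals of the same fit.

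Levels per kilobase used the longest GENCODE vM39 transcript, and promoters the RefSeq GRCm38.p6 table. Gene positions are those of the GRCm38 (mm10) RefSeq annotation. Alternatives were edgeR 4.0.16 and DESeq2 1.42.0 on the recovered read pairs, a pseudocount of 0.5, no filter or a mean of at least 50, equal library totals, a fit of the compared groups alone, the letters A and B as a block, each library left out in turn, and the shortest transcript. Named were all 9 members, and of each other list up to 3 called genes with the smallest adjusted p, or the most abundant gene where none was called, besides exceptions given as such. The members and lists were chosen with earlier results of these data known.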

Additional observations from a re-analysis of the deposited data

Results flagged for a closer look

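The effect of KO on Myc differed between the stages by an interaction test. The log2 change in KO against WT was 0.03 at day 2 and -1.22 in mESC, a difference of 1.25 ± 0.24 (SE, limma, n = 2 libraries a group, adjusted p = 0.0237), and both KO libraries lay below both WT libraries in mESC while the pairs overlapped at day 2. The difference passed the threshold in 9 of 18 alternatives. It was lost, among others, with no filter, with equal library totals and with the compared groups alone.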

How the results depend on the processing

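With 2 libraries a group, leaving out 1 leaves an arm whose lone library is assumed to vary like the other groups. Of 29 calls among 99 member values, 14 held under every alternative run, 311 of their 363 alternative values passed the threshold and 0 changed sign. Mxd1 and Mxd4, with as few as 6 read pairs a library, were the least precise. Equal library totals moved the median of all genes by -0.21 in KO against WT mESC and -0.11 at day 2, by -0.12 and -0.09 in KO+Rescue against KO (mESC and day 2), by -0.32 and -0.20 in KO+Rescue against WT, by 0.36, 0.34 and 0.23 between stages in KO+Rescue, KO and WT, and by 0.10 for the difference of the KO effects. The share of calls that were higher became 14.7% (34.0% as reported) and 18.9% (30.2%) in KO against WT, 13.9% (31.5%) in KO+Rescue against KO mESC, 14.7% (50.3%) and 18.8% (35.1%) in KO+Rescue against WT, and 71.2% (50.1%), 71.2% (52.3%) and 67.6% (51.2%) between stages. Calls over all genes ran from 181 to 3657 in KO against WT mESC (1455 as reported) and from 426 to 1619 at day 2 (799) without leave-outs, and from 392 to 3225 and from 246 to 711 with 1 library left out. The causes were not tested.

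In KO against WT mESC (2 members as reported) a fit of the compared groups alone called 1, and 1 to 4 were called with 1 library left out. In KO against WT at day 2 (1 as reported) the count was 0 with no filter, with equal library totals and with the compared groups alone, 2 with DESeq2, and 0 to 2 with 1 library left out. In KO+Rescue against KO at day 2 (0 as reported) it was 2 with DESeq2 and 3 with the compared groups alone. In KO+Rescue against WT mESC (2) it was 5 with equal library totals, 1 with the compared groups alone and 0 to 3 with 1 library left out, and at day 2 (2) 1 and 0 to 1. At day 2 against mESC it was 6 to 8 in KO+Rescue (7), 5 to 7 in KO (8) and 4 to 7 in WT (6) with 1 library left out. For the difference of the KO effects (1) it was 0 with no filter, equal library totals or the compared groups alone, 2 with DESeq2, 2 with both WT libraries lettered B left out, chosen after seeing the data, and 0 to 2 with 1 library left out.

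No label states that the letters A and B pair libraries, and they were not taken to. Deviations of same-lettered libraries correlated at -0.05 to 0.41 over 15 pairs of groups, with 6 above 0.1. With the letter as a replicate block, no call was lost. Members called were 3 in KO against WT mESC (Mnt added, adjusted p = 0.0494), 2 at day 2 (Mxi1, 0.042), 3 in KO+Rescue against KO at day 2, 3 in KO+Rescue against WT mESC (Mxd3, 0.0352), 3 at day 2 (Max, 0.0481), 7 between stages in WT (Mycn, 0.0417), 9 in KO (Mxd3, 0.0335) and 2 for the difference of the KO effects (Mycn, 0.0163). The nucleolar list then had 2 higher and 9 lower genes in KO against WT mESC.

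All 49 values that changed sign were of members not called. With 1 library left out, KO against WT mESC ran from -0.42 to 0.053 for Mycn and -0.068 to 0.12 for Max, which was -0.18 with equal library totals and -0.0066 with edgeR. At day 2 it ran from -0.091 to 0.15 for Myc, -0.26 to 0.31 for Mnt, -0.0665 to 0.13 for Mxd1, -0.39 to 0.28 for Mxd3 and -0.0245 to 0.38 for Mxd4, and equal library totals gave -0.078 for Myc, -0.082 for Mnt and -0.076 for Mxd1 while DESeq2 gave -0.0010 for Mnt. KO+Rescue against KO mESC ran from -0.0115 to 0.11 for Max, -0.82 to 0.28 for Mxd1 and -0.0903 to 0.0906 for Mxi1, with -0.069 for Max and -0.12 for Mxi1 at equal totals and -0.021 for Mxi1 with edgeR. At day 2 it ran from -0.0096 to 0.074 for Mnt, -0.057 to 0.37 for Mxd3 and -0.25 to 0.13 for Mxd4, with -0.057 for Mnt at equal totals. KO+Rescue against WT mESC ran from -0.019 to 0.17 for Max and -0.52 to 0.041 for Mnt, with -0.25 for Max at equal totals. At day 2 it ran from -0.22 to 0.0255 for Myc, -0.14 to 0.19 for Mycn, -0.23 to 0.35 for Mnt, -0.23 to 0.43 for Mxd3 and -0.084 to 0.32 for Mxd4, with -0.17 for Mycn, -0.14 for Mnt, -0.095 for Mxd3 and -0.0775 for Mxd4 at equal totals. Day 2 against WT mESC ran from -0.55 to 0.11 for Mxd3 (0.015 with equal totals). The difference of the KO effects ran from -0.62 to 0.0504 for Mxd3 and -0.28 to 0.043 for Mxi1, and that of the rescue effects from -0.84 to 0.26 for Mxd1 and -0.41 to 0.0199 for Mxd3. With the shortest transcript all 54 levels per kilobase moved by over 1 SD and 30 changed place.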
